A study of Mus musculus with 4 samples.

Results

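Levels of 8 long noncoding RNAs, Malat1, Neat1, Miat, Rmst, Sox2ot, Tug1, Pantr1 and Dlx6os1, were followed from proliferating otic progenitors to the neurons derived from them. They were found by gene symbol among the 49997 rows of each deposited count table, and all 8 were present. The filter on low counts kept 12783 genes, among them 7 of the 8, and Dlx6os1 was not kept. The study's title concerns the chromatin remodeller CHD7 at boundaries of chromatin domains during neuronal differentiation. Its 4 libraries came from iMOP cells, an immortalized line of otic progenitors from mouse, wild-type by label in both groups. Proliferating cultures (replicates 1 and 2, called P1 and P2) grew in DMEM/F12 with B27, carbenicillin and bFGF at 20 ng/ml. The iMOP-derived neurons (replicates 1 and 2, called N1 and N2) grew in Neurobasal medium with N21, L-glutamine and the CDK2 inhibitor K03861 at 1 µM. Both groups are a single cell line, medium and inhibitor differ together between them, and their parts in any difference cannot be told apart. The titles call the libraries biological replicates without saying how the cultures were separated, so p-values measure the spread between these libraries.

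Long noncoding RNAs are transcripts without a long reading frame, and many act where they are made. Malat1 gathers at nuclear speckles, which hold splicing factors, Neat1 is the scaffold of paraspeckles, and Miat (also called Gomafu) forms its own nuclear domain in neural cells and binds splicing regulators. Rmst, Sox2ot, Pantr1 and Dlx6os1 are transcribed in developing neural tissue, 3 of them beside or across a gene for a transcription factor (Sox2, Pou3f3, Dlx6). Tug1 is widely expressed and was first described in the retina. RNA was depleted of ribosomal RNA and not selected for poly(A) tails, so transcripts that end without such a tail, as Malat1 and the long form of Neat1 do, could be counted.

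Sequences are shown for the nuclear-body RNAs, whose ends and repeats are known features. Malat1 (chr19:5795690-5802672) and Neat1 (chr19:5824708-5845480) are neighbours on the minus strand of chromosome 19. The 120 bases that end with a shared A-rich tract are printed below from the longest GENCODE M21 transcripts of Malat1 (bases 6572 to 6691 of 6983, chr19:5795982-5796101) and Neat1 (bases 20652 to 20771 of 20771, chr19:5824708-5824827), GRCm38, minus strand, 5′ to 3′. Both transcripts have a single exon. Capitals mark the longest end of Neat1 that also occurs in Malat1, AAAAAGCAAAA, and the longest stretch that both windows share before it, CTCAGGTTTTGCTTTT, on the transcript strand and written with T for U. Such ends are known to fold into a triple helix that protects the RNA.
Malat1: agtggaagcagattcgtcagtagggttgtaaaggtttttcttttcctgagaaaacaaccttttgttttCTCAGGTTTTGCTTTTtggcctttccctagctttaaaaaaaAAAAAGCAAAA
Neat1: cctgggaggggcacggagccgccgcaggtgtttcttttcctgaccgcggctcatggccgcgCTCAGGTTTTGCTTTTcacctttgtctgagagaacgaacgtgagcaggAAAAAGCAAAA

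The A-rich end has 11 bases and occurred in 304 of 55341 genes' longest transcripts (0.549%), and in 0.0314% of 858817 windows of 120 bases. The upstream stretch, which ends in a U-rich run, has 16 bases and occurred in 2 of the 55341, Malat1 and Neat1, the pair from which it was read. None of the other 6 members held either. Mascrna, the small RNA cut off behind the tract of Malat1, has a row of its own and was listed at 0 counts in each library. It overlaps Malat1, and how reads that match both were counted is not given in the sources used here. The 0 counts therefore do not show that this small RNA was absent.

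Miat carries repeats of another kind. Its longest transcript has 9163 bases and held the letters ACTAAC 11 times, on the transcript strand, against 4 times in Neat1, 1 time each in Tug1 and Pantr1, and never in the longest transcripts of Malat1, Rmst, Sox2ot and Dlx6os1. As background, the RNA-binding protein Qk and the branch point protein Sf1 recognise this motif. The stretch printed below, bases 5519 to 5638 in exon 7 of 7, chr5:112216753-112216872, minus strand, holds 4 copies, in capitals. At least 1 copy was found in 17.9% of the 55341 longest transcripts, and at least 11 in 10 of them (0.0181%). Of windows of 120 bases laid end to end, 1.36% held at least 1 copy and 0.000932% at least 4. The printed stretch was instead placed where copies were densest, so the window share is not a like comparison.
Miat: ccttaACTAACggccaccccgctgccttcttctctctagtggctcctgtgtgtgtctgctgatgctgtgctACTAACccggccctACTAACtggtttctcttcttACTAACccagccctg

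The libraries themselves limit the comparison. Total counts were 7446361 to 14484011, and 2595578 to 3850766 remained without one 18S ribosomal RNA row. That row took 53.34% of counts in P1 and 59.35% in N1, but 74.99% in P2 and 76.1% in N2. Its share thus split by replicate number, and its part in the levels below was not tested. Levels below are CPM (counts scaled by the TMM-adjusted library size), with SD over the 2 libraries of a group. P2 stood apart, with 17762 genes detected against 20012 to 21637 in the others, and 37.7% of all tested genes had their lowest CPM in it. Of the neuron markers, 7 of 10 tested were higher in neurons, Elavl4 and Map2 among them, but Tubb3, the neuronal tubulin, had 233 counts in P1, 1430 in P2, 342 in N1 and 1026 in N2, against its label in P2. Of the progenitor markers 5 of 7 tested were lower, with the otic factors Pax2 and Pax8 at 0 in each library. The proliferation genes Mki67 and Top2a were higher in neurons in both pairs, by 0.35 and 2.07 and by 0.39 and 2.57 on the log2 scale. In the replicate 1 pair 6 of the 10 neuron markers were lower and 4 of the 7 progenitor markers higher in the library labelled neurons, against the labels. None of the neuron or progenitor markers had an edgeR adjusted p-value under 0.05. Without the gene filter the edgeR adjusted p-value of the cyclin gene Ccnd1 was 0.00217, where 0.630% of 25859 genes were called. Ccnd1 had 8.11 CPM in P1, 62.6 CPM in P2, 5.12 CPM in N1 and 4.78 CPM in N2, so the high value was that of P2. In bulk RNA, fewer cells of a type and less RNA per cell cannot be told apart.

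Per kilobase, Malat1 was by far the most abundant of the 8. Levels between genes are given here as TMM CPM per kilobase of the length the authors used. Malat1 had 364.6 in P1, 68.95 in P2, 270.4 in N1 and 134.7 in N2, which put it between the 97.3 and the 98.8 percentile of all detected genes by RPKM. It made up 89.0% to 95.8% of all counts of the 8 RNAs together. Pantr1 came second in each library, at 3.75 to 10.1 CPM per kilobase. Below it by mean level came Rmst (mean 2.30 ± 1.38, SD over 4 libraries), Sox2ot (1.94 ± 1.58), Tug1 (1.59 ± 0.841) and Neat1 (1.01 ± 0.671). Their order changed from library to library and their ranges of mean ± SD overlapped, although Rmst was above Neat1 in each library. Differences between these levels were not tested. Miat had 0.524 ± 0.154 and Dlx6os1 0.325 ± 0.547, the latter resting on 1 library.

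These lengths favour some members over others. The authors' length was 2687 bases for Rmst and 2970 for Sox2ot, near their longest GENCODE transcripts of 2891 and 3486. For Pantr1 it was 546, against a longest transcript of 2085, so its second place rests on that short length. For Neat1 it was 23956, for Tug1 16577 and for Miat 17476, each more than the whole gene in RefSeq (20773, 9030 and 15721 bases), so the levels per kilobase of these 3 are understated. That of Dlx6os1 is too, with an authors' length of 12598 against a longest transcript of 4608. Comparisons between libraries are not affected.

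**Figure D1:**
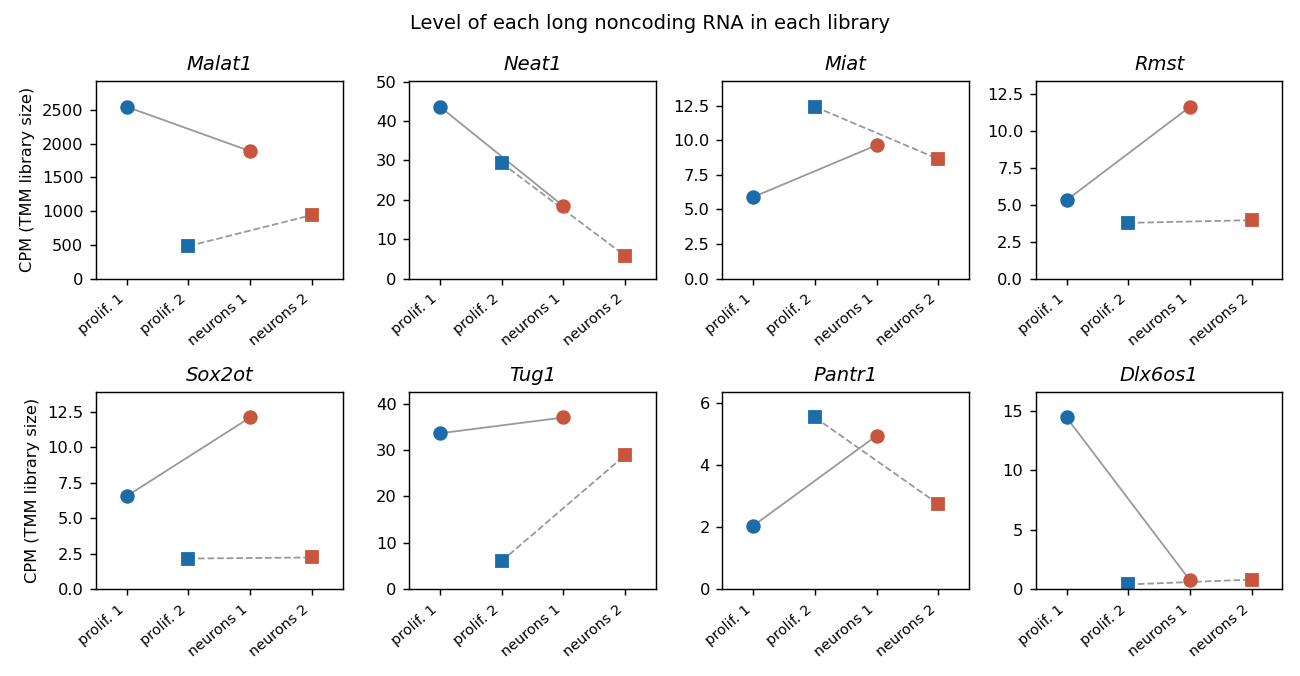
CPM (TMM library size, linear axis from 0) of each of the 8 long noncoding RNAs in each library. Blue marks proliferating cells and red neurons, circles replicate 1 and squares replicate 2, and a line joins the libraries of the same replicate number. Both lines slope down for Neat1 (43.6 to 18.4 and 29.3 to 5.79 CPM), whereas for Malat1, Miat, Pantr1 and Dlx6os1 the lines slope in opposite directions.

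Neurons were compared with proliferating cells to ask which of these RNAs differ after differentiation. In the edgeR quasi-likelihood test across all 12783 genes, 0 genes had an adjusted p-value under 0.05 (percent called 0), and each of the 7 tested members had an adjusted p-value of 0.9998. Without adjustment 438 genes (3.43%) passed 0.05, with 321 lower (2.51%) and 117 higher in neurons (0.915%), and Neat1 was the member among them. DESeq2 called 60 of 11543 genes (0.520%) and edgeR with a replicate block called 3 (0.0235%), with no member among either. With that block 6.18% of genes passed 0.05 unadjusted, again with Neat1 as the member among them. The median log2 fold change of the 7 members was 0.044, beside 0.024 for all tested genes.

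Neat1 had the lowest log2 fold change of the 7 tested members. It had 532 counts in P1 and 217 in P2, against 219 in N1 and 57 in N2. In CPM these were 43.6 and 29.3 against 18.4 and 5.79, so both neuron libraries lay under both proliferating ones, as in 14.5% of all tested genes. The group means were 36.4 ± 10.1 and 12.1 ± 8.89 CPM (SD, n = 2 each). By edgeR the log2 fold change was -1.59 (SE 0.634, unadjusted p-value 0.0389), and with the replicate block it was -1.77 with an unadjusted p-value of 0.00378 and an adjusted p-value of 0.328. Within replicate 1 it was 2.37-fold lower in neurons (95% counting interval 2.02 to 2.79), and within replicate 2 it was 5.06-fold lower (3.76 to 6.89). Leaving out a library moved the log2 fold change to between -2.69 (without N1) and -0.99 (without N2).

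Glial markers were measured beside Neat1. Of the 8 listed, 5 were tested and all 5 had a negative log2 fold change, beside 6132 of all 12783 tested genes, and 4 of the 5 were lower in both pairs, beside 25.5%. Aqp4 was the exception, with 0.270 CPM in P2 and 0.508 CPM in N2. The summed level of the list was 165 and 120 CPM in P1 and P2 against 72.7 and 25.4 CPM in N1 and N2. Gfap, the intermediate filament of astrocytes, had 181 and 89 counts in the proliferating libraries and 1 and 2 in the neuron libraries, and edgeR adjusted p-values of 0.110 and, with the replicate block, 0.0158 (DESeq2 1.77e-06), while the myelin gene Mbp had 0 and 2 counts in P1 and P2 and 0 and 1 in N1 and N2. The part of glial cells in the difference of Neat1 was not tested.

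Transcripts of the proteins that build paraspeckles on Neat1 were counted too, and the proteins themselves were not measured. Of 16 genes listed, all were tested, 11 higher and 5 lower in neurons, beside 6651 and 6132 of all 12783. Their median log2 fold change was 0.185, beside 0.024 for all tested genes. None had an unadjusted edgeR p-value under 0.05, beside 3.43% of all tested genes. Sfpq, a core paraspeckle protein, had 143 and 126 CPM in the proliferating libraries and 144 and 131 CPM in the neuron libraries. Nono, its partner, had 32.4 and 38.1 CPM against 46.2 and 43.1 CPM. Matr3, a nuclear matrix protein of the list, had 82.0 CPM in P1, 97.6 and 85.1 CPM in the neuron libraries, but 19.6 CPM in P2.

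Malat1 followed the replicate number more than the group. It had 31079 counts in P1, 3567 in P2, 22515 in N1 and 9253 in N2. The levels were 2546, 481.5, 1889 and 940.6 CPM in the same order, so both replicate 1 libraries were above both replicate 2 libraries and the groups overlapped. The log2 fold change was -0.10 with SE 0.732 (edgeR adjusted p-value 0.9998). Within replicate 1 Malat1 was 1.35-fold lower in neurons (95% counting interval 1.33 to 1.37), and within replicate 2 it was 1.95-fold higher (1.88 to 2.03). Without P1 the log2 fold change was 1.54 and without N2 it was 0.32, whereas without P2 it was -0.85 and without N1 it was -0.72.

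Levels of abundant structured small RNAs were set beside those of Malat1. Rn7sk, the small RNA that holds the elongation factor P-TEFb inactive, had 1713 CPM in P1 and 3237 CPM in P2, against 2566 and 2291 CPM in N1 and N2. It was thus highest in the library where Malat1 was lowest. Of 9 structured small RNAs listed, all tested, 1 had its lowest level in P2, beside 37.7% of all tested genes. Malat1 was not alone, as 8 of 10 other long noncoding RNAs tested, described below, were also lowest in P2. Of 17 genes for proteins of nuclear speckles, where Malat1 gathers, 7 were higher and 10 lower in neurons. Over all tested genes 6651 were higher and 6132 lower. The median log2 fold change of the 17 was -0.10, beside 0.024 for all tested genes. None of the 17 had an unadjusted edgeR p-value under 0.05, beside 3.43%. Srrm2, a core protein of speckles, had 210.6 and 385.2 CPM in the proliferating libraries and 205.1 and 218.3 CPM in the neuron libraries.

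The ratio of Malat1 to Neat1 counts needs no scaling factor. It was 58.4 (95% counting interval 53.6 to 63.8) in P1, 16.4 (14.3 to 18.9) in P2, 103 (90.0 to 118) in N1 and 162 (125 to 215) in N2. Both neuron libraries thus had a higher ratio than both proliferating ones, and the counts of these neighbours were not in a fixed proportion. Neat1 has 2 transcripts in RefSeq, and counts by gene do not tell its long form from others, here or elsewhere.

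Miat differed little between the group means. It had 72 and 92 counts in P1 and P2 and 115 and 85 in N1 and N2, or 5.90, 12.4, 9.65 and 8.64 CPM. The neuron values lay between the proliferating ones. The log2 fold change was 0.0053 with SE 0.536 (edgeR adjusted p-value 0.9998), and its sign turned with the scaling, to -0.0056 with RLE size factors and -0.044 with library size alone. Within replicate 1 Miat was 1.64-fold higher in neurons (95% counting interval 1.21 to 2.23), and within replicate 2 it was 1.44-fold lower (1.06 to 1.95). The log2 fold change was -0.46 without P1, -0.12 without N1, 0.63 without P2 and 0.080 without N2.

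Transcripts of proteins that bind Miat or Rmst were read in the same edgeR test, in which no gene had an adjusted p-value under 0.05. Of the 5 genes listed, 2 were higher and 3 lower in neurons. Qk, whose protein is known to recognise ACTAAC, had 121 and 64.4 CPM in P1 and P2 and 67.2 and 24.4 CPM in N1 and N2. It was lower in both pairs with overlapping groups, with a log2 fold change of -1.02 (SE 0.616, edgeR adjusted p-value 0.9998). With the replicate block its edgeR p-value was 0.0248 unadjusted, where 6.18% of all genes passed 0.05, and 0.668 adjusted. Sf1 had 625 and 704 counts in P1 and P2 and 720 and 539 in N1 and N2. Celf3, a neural splicing regulator, had 24.2 and 3.65 CPM against 24.0 and 6.71 CPM, so its libraries split by replicate number.

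The proportion of Pantr1 to its neighbour Pou3f3 did not differ detectably between libraries at these counts. Pantr1 (chr1:42648200-42694825) is transcribed from the minus strand and Pou3f3, a POU domain transcription factor of the developing nervous system, from the plus strand, with 942 bases between them in RefSeq. Pantr1 had 25 and 41 counts in P1 and P2, and 59 and 27 in N1 and N2. Pou3f3 had 304 and 459 counts in P1 and P2, and 697 and 322 in N1 and N2. The counts of Pantr1 per count of Pou3f3 were 0.0822 (95% counting interval 0.0524 to 0.124) and 0.0893 (0.0632 to 0.123) in the proliferating libraries, and 0.0846 (0.0638 to 0.111) and 0.0839 (0.0544 to 0.124) in the neuron libraries. All 4 values lay inside one another's intervals.

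Among 12782 other tested genes, Pou3f3 was the gene whose profile over the 4 libraries came closest to that of Pantr1. The measure was the root mean square difference of log2 CPM centred on each gene's mean, and it was 0.026 for Pou3f3 and 0.0387 for the next gene, the transfer RNA gene n-TSgct3. The neighbouring coding genes given here for other members were farther from their profiles. For Sox2ot, Dnajc19 ranked 336 and Sox2, inside its gene, 6545. Frmd8 ranked 1655 for Neat1 and 10842 for Malat1. Tmpo ranked 1118 for Rmst, Morc2a 5828 for Tug1 and Mn1 5983 for Miat, while Dlx6os1 was not ranked. A profile over 4 libraries is a short one, and Pantr1 had 25 to 59 counts. The ranks are a description that does not allow for counting error.

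The shared profile had no constant direction between the groups. Pantr1 was at 2.05 CPM in P1, 5.53 CPM in P2, 4.95 CPM in N1 and 2.74 CPM in N2. Within replicate 1 it was 2.42-fold higher in neurons (95% counting interval 1.49 to 4.03), and within replicate 2 it was 2.02-fold lower (1.21 to 3.41). Pou3f3 was 2.35-fold higher (2.05 to 2.69) and 1.89-fold lower (1.64 to 2.19) in the same pairs. The log2 fold changes were 0.044 (SE 0.660) for Pantr1 and 0.073 (SE 0.586) for Pou3f3, with edgeR adjusted p-values of 0.9998. That of Pantr1 was -0.54 without P1, -0.49 without N1, 0.91 without P2 and 0.40 without N2.

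The promoter of Pou3f3 is printed as a description. None was available for Pantr1 in the promoter set used here, and the part of promoter sequence in the proportion of their counts was not tested. The 300 bases around the start of Pou3f3 from RefSeq (chr1:42695518-42695817, GRCm38.p6, plus strand, 250 bases before to 50 after the start) lie on the side that faces Pantr1. Capitals mark CCAAT, searched on both strands as CCAAT and ATTGG. It occurred 3 times, as often or more in 3.21% of 32851 promoters of that length, while 37.4% held at least 1 copy. A match is a description of the letters.
Pou3f3: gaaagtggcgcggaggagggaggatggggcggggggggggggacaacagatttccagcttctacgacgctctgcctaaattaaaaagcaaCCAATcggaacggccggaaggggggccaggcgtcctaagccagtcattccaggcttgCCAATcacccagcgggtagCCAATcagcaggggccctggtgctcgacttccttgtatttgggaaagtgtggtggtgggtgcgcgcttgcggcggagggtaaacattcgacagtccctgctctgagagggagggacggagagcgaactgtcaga

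**Figure D2:**
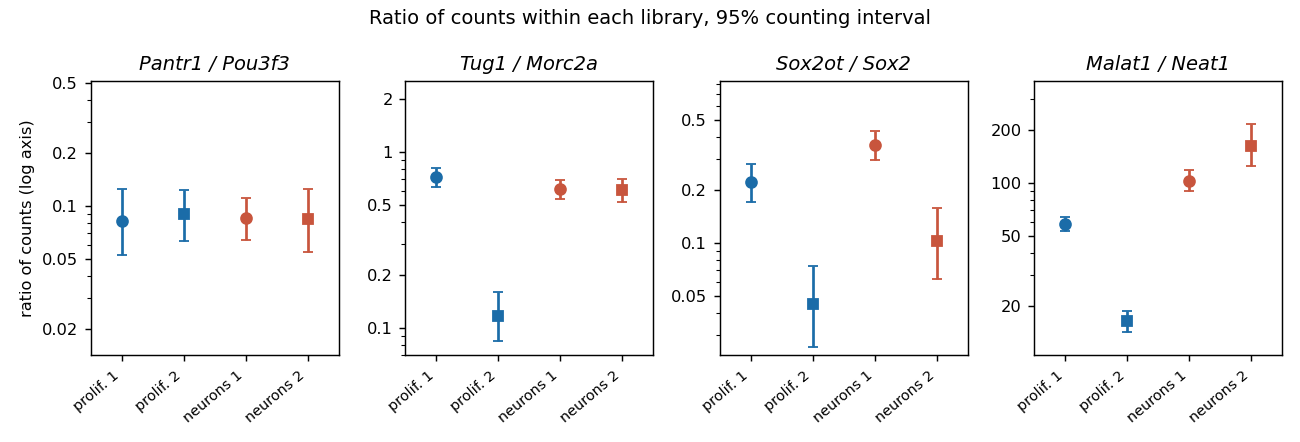
Ratio of counts of 2 genes within each library on log axes that each span a 36-fold range, with 95% counting intervals; blue marks proliferating cells and red neurons, circles replicate 1 and squares replicate 2. Pantr1 per Pou3f3 stays between 0.0822 and 0.0893, Tug1 per Morc2a drops to 0.117 in proliferating replicate 2 alone, and Sox2ot per Sox2 and Malat1 per Neat1 spread over the libraries.

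Tug1 was low in a single library. It had 410 counts in P1, 441 in N1 and 284 in N2, but 45 in P2. The levels were 33.6, 37.0 and 28.9 CPM against 6.07 CPM there. The log2 fold change of 0.72 (SE 0.748, edgeR adjusted p-value 0.9998) rested on that library: without P2 it was -0.028, and without P1 it was 2.42 with an adjusted p-value of 0.0536. Within replicate 1 Tug1 was 1.10-fold higher in neurons (95% counting interval 0.960 to 1.26), and within replicate 2 it was 4.75-fold higher (3.46 to 6.66). With library size alone, which shifted the replicate 1 pair by -0.381 and the replicate 2 pair by -0.0719 on the log2 scale, the replicate 1 value of 0.14 turned negative.

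Morc2a, the coding gene that starts 374 bases from Tug1 in RefSeq on the other strand, did not share the low value. It had 574 and 385 counts in P1 and P2 and 721 and 469 in N1 and N2, or 47.0, 52.0, 60.5 and 47.7 CPM. Counts of Tug1 per count of Morc2a were 0.714 (95% counting interval 0.628 to 0.812) in P1, 0.612 (0.542 to 0.690) in N1 and 0.606 (0.521 to 0.703) in N2. In P2 the ratio was 0.117 (0.0838 to 0.159). The gene models of the pair overlap in GENCODE M21, and the use of strand in counting is not given in the sources used here. The genes most like Tug1 over the 4 libraries were Klhl28 (root mean square difference 0.0395) and Myo9a (0.0434), the latter with 456, 48, 490 and 294 counts in P1 and P2 and N1 and N2.

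Sox2ot and Rmst were highest in N1. Sox2ot, whose gene (chr3:34560381-34677993) contains Sox2 on the same strand, had 80 and 16 counts in P1 and P2 and 144 and 22 in N1 and N2. Its levels were 6.55, 2.16, 12.1 and 2.24 CPM, with both replicate 1 libraries above both replicate 2 libraries. The log2 fold change was 0.70 with SE 0.857 (edgeR adjusted p-value 0.9998), and -1.01 without N1. Within replicate 1 Sox2ot was 1.84-fold higher in neurons (95% counting interval 1.39 to 2.45), and within replicate 2 the ratio of neurons to proliferating cells was 1.04 (0.519 to 2.11), so no difference was detectable there at this depth.

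Sox2, the progenitor transcription factor inside the Sox2ot gene, had another order. It had 362 and 355 counts in P1 and P2 and 402 and 216 in N1 and N2, or 29.7, 47.9, 33.7 and 22.0 CPM. Counts of Sox2ot per count of Sox2 were 0.221 (95% counting interval 0.171 to 0.282) and 0.0451 (0.0255 to 0.0742) in the proliferating libraries, and 0.358 (0.294 to 0.434) and 0.102 (0.0625 to 0.158) in the neuron libraries. The ratio was higher in neurons within each replicate and higher in replicate 1 within each group.

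Rmst, an RNA known to bind the SOX2 protein at neurogenic genes, had 65 and 28 counts in P1 and P2 and 139 and 39 in N1 and N2. Its levels were 5.33, 3.78, 11.7 and 3.96 CPM, again with both replicate 1 libraries on top. The log2 fold change was 0.77 with SE 0.627 (edgeR adjusted p-value 0.9998), and -0.24 without N1. Within replicate 1 Rmst was 2.19-fold higher in neurons (95% counting interval 1.62 to 2.99), and within replicate 2 the ratio was 1.05 (0.629 to 1.77). With library size alone the replicate 2 values of both Rmst (0.066) and Sox2ot (0.046) turned negative on the log2 scale. Sox2ot was the member nearest to Rmst in profile, with a root mean square difference of 0.475, while the nearest of all genes were Nr6a1 (0.0101) and Alox15 (0.0386). Mir1251, a microRNA gene within Rmst, had 0 to 2 counts in each library.

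Dlx6os1, also called Evf2, is known from developing forebrain interneurons, where it is transcribed across Dlx6. It had 176 counts in P1, 3 in P2, 9 in N1 and 8 in N2, or 14.4, 0.405, 0.755 and 0.813 CPM. The high value belonged to 1 library and not to its group: the proliferating replicates differed 35.6-fold (95% counting interval 12.0 to 174), while the neuron libraries lay between them. The test without a gene filter gave a log2 fold change of -3.23 with an edgeR adjusted p-value of 0.00425, where 0.630% of 25859 genes were called. Without P1 the difference of mean log2 CPM went from -1.60 to 0.71.

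Other genes of the DLX locus were sparse. Dlx6os2, which also overlaps Dlx6os1, had 10 counts in P1 and 0 in the other libraries. Dlx5, a homeodomain factor gene 6173 bases away, had 23 and 6 counts in P1 and P2 and 1 and 4 in N1 and N2. Dlx6 had 3, 0, 2 and 5 counts in the same order. Of the glial markers, Aqp4, the water channel of astrocytes, was also highest in P1, with 356 counts against 2, 31 and 5 in P2, N1 and N2. The 4 other tested markers had no gap of that size between P1 and P2, with 14.8 and 12.0 CPM for Gfap, 92.1 and 48.2 CPM for the glutamate transporter Slc1a3, 22.3 and 48.9 CPM for the fatty acid binding protein Fabp7 and 6.23 and 10.3 CPM for Cnp, and the summed level of the list was 165 and 120 CPM. The part of astrocyte-like cells in the level of Dlx6os1 was not tested.

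**Figure D3:**
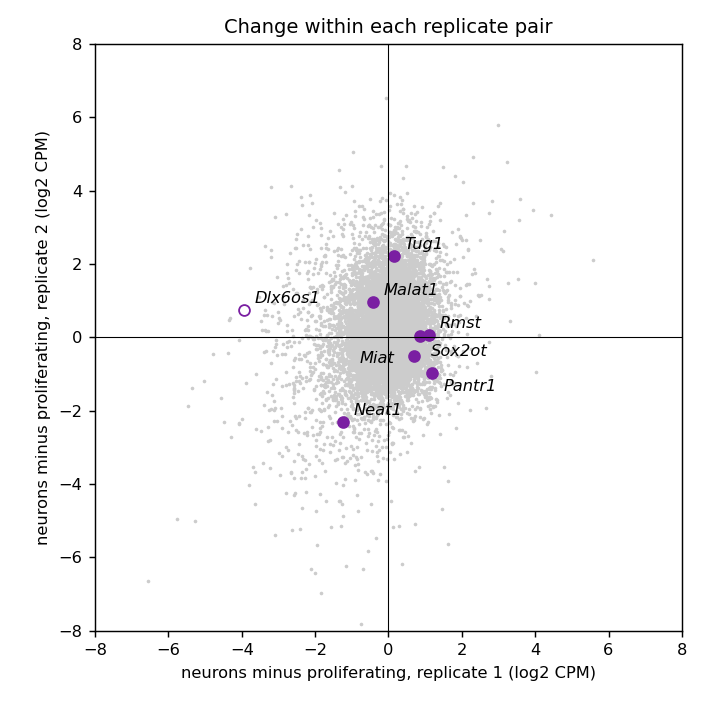
Difference of log2 CPM (prior count 2), neurons minus proliferating cells, in replicate 1 (horizontal) and replicate 2 (vertical); grey points are the 12783 tested genes, filled circles the 7 tested members and the open circle Dlx6os1. Neat1 is the member in the lower left quadrant (-1.24 and -2.30), and Malat1, Miat and Pantr1 lie in quadrants of opposite sign.

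Directions and replicate splits of the 7 tested members are set beside those of all tested genes, without a test. In 3 of the 7 (Malat1, Miat, Pantr1) the replicate pairs had opposite signs, beside 45.7% of all tested genes. In 3 (Rmst, Sox2ot, Tug1) neurons were higher in both pairs, beside 28.8%, although for each of them one of these values turned negative with library size alone. Only Neat1 was lower in both, beside 25.5%. In the replicate 2 pair 3 of the 7 were lower, beside 46.7%. Both replicate 1 libraries exceeded both replicate 2 libraries in 4 of the 7 (Malat1, Rmst, Sox2ot, Tug1), beside 26.0% of all tested genes. P2 was the highest library for Miat and Pantr1, beside 34.0%. None had both neuron libraries above both proliferating ones, beside 12.9%.

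Other long noncoding RNAs were read in the same edgeR test, in which no gene had an adjusted p-value under 0.05. Of 20 listed, 10 were tested, 6 higher and 4 lower in neurons, beside 6651 and 6132 of all 12783. Their median log2 fold change was 0.043, beside 0.024 for all tested genes. None of the 10 had an unadjusted edgeR p-value under 0.05 without the replicate block, beside 3.43% of all tested genes. In the replicate 1 pair 2 were higher and 8 lower, against 5 higher and 2 lower of the 7 tested members, and in the replicate 2 pair 8 were higher and 2 lower, against 4 and 3. In 8 of the 10 the lowest level was in P2, as it was in 4 of the 7 tested members and in 37.7% of all tested genes. Kcnq1ot1, the very long antisense RNA of an imprinted domain, had 139 CPM in P1, 17.5 CPM in P2, 188 CPM in N1 and 66.2 CPM in N2, which is the replicate split of Malat1. Firre, a nuclear RNA of the X chromosome, had 23.8 and 10.4 CPM against 11.0 and 14.4 CPM. Norad, which binds Pumilio proteins, had 18.1 and 10.4 CPM against 11.2 and 13.7 CPM. Meg3, Rian, Mirg, Xist and Six3os1 were listed at 0 in each library.

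**Figure D4:**
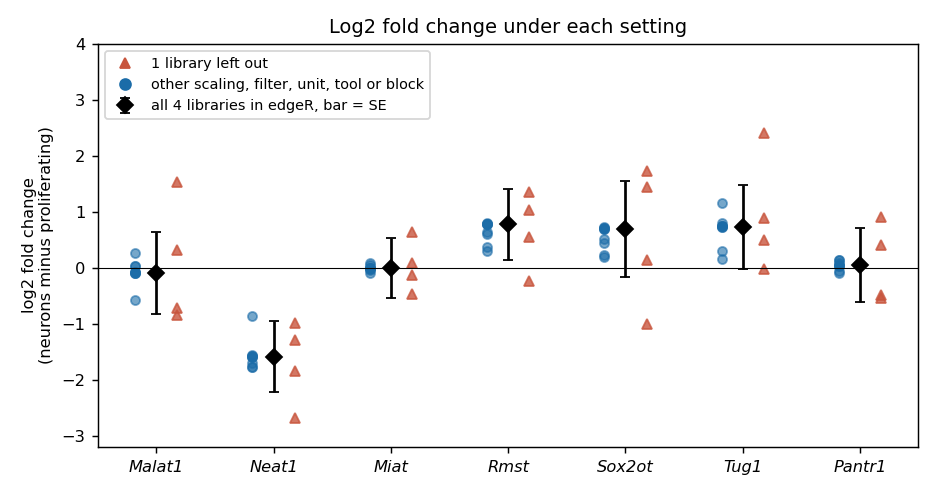
Log2 fold change (neurons minus proliferating) of the 7 tested members; diamonds with bars are the edgeR estimate from all 4 libraries with its SE, blue circles other scalings, filters, units, tools or the replicate block, red triangles fits with 1 library left out. Neat1 stays below 0 in all of them, from -2.69 to -0.85, whereas each of the other 6 crosses 0.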

How the data were processed

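For each of the 4 libraries the authors deposited 2 kinds of value, unnormalized read counts and RPKM. Per the submitters' processing notes, HISAT2, SAMtools, featureCounts, DESeq2 and deepTools 3.4.3 and the build mm10 were used, without roles. Annotation, strand setting and treatment of reads with several matches are not given in the sources used here. The deposited RPKM equals the count divided by the library total, with the 18S row in it, and by a length fixed for each gene. All 49997 symbols matched RefSeq GRCm38.p6, the source of the coordinates.

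Groups and replicate numbers came from the titles. The test was edgeR 4.0.16 in R 4.3.3 on all counts (TMM factors, filterByExpr with minimum count 10 and minimum total 15, glmQLFit and glmQLFTest, group as the single term), two-sided, with Benjamini-Hochberg adjustment over all tested genes. With 2 libraries against 2, an exact permutation cannot give a two-sided p-value under 0.333, so single values were not permuted. Within a pair, log2 CPM (prior count 2) was subtracted. Intervals are exact conditional binomial at 95% and cover counting error only, since each count comes from a single library. The reads carry no molecular identifiers, so copies of a molecule cannot be told apart and the intervals may be too narrow. Both replicate 2 titles say set 2, so the numbers were taken to mark a shared set. Deviations of same-numbered libraries from their group means correlated at r = 0.33 across genes.

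The members and gene lists were chosen with earlier results of these data known. Any member, listed gene, overlapping gene or nearest coding neighbour could be named, with the 2 genes most like each tested member and the 18S row. The stretches shared by Malat1 and Neat1 were read from their transcripts. The code was run on simulated counts with larger changes than those of the tested members. The simulated spread between libraries was smaller than in these data, so that run cannot show how small a change could be found here. Alternatives were RLE factors, library size alone, the 18S row left out, DESeq2 1.42.0, other gene filters, leaving out each library, the replicate block, and limma 3.58.1 on log2(RPKM + 1) and log2(RPKM + 0.1). Python 3.11.15 with numpy 2.4.6, pandas 2.3.3 and scipy 1.17.1 was used for the rest. Some neighbouring and marker genes are not reported here.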

Additional observations from a re-analysis of the deposited data

How the results depend on the processing

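Of 101 values of the 8 RNAs under other settings, 80 kept their direction without a call and 20 changed sign. The 80 include 8 of Dlx6os1 that are differences of means without a test. The remaining 1 passed the threshold, Dlx6os1 without a gene filter (-3.23, edgeR adjusted p-value 0.00425). Neat1 kept its sign in all 13, from -2.69 to -0.85. Malat1, at -0.10, was 0.035 on log2(RPKM + 1), 0.040 on log2(RPKM + 0.1) and 0.27 with the replicate block. Miat, at 0.0053, was -0.0056 with RLE factors, -0.044 with library size alone, -0.0058 in DESeq2, -0.024 on log2(RPKM + 1) and -0.098 on log2(RPKM + 0.1). Pantr1, at 0.044, was -0.052 and -0.091 on those RPKM scales. Leaving out each library gave -0.85 to 1.54 for Malat1, -0.46 to 0.63 for Miat, -0.54 to 0.91 for Pantr1, -0.24 to 1.35 for Rmst, -1.01 to 1.72 for Sox2ot, -0.028 to 2.42 for Tug1 and -3.90 to 0.71 for Dlx6os1. Counts of called genes, 0 in each direction, were 12 higher and 48 lower in DESeq2, 41 and 122 without a gene filter, 0 and 2 with library size alone, 0 and 1 on log2(RPKM + 1), 0 and 2 on log2(RPKM + 0.1) and 0 and 3 with the replicate block, which changed no other call. With a library left out they were 1 to 54 higher and 9 to 106 lower, the lone library being assumed to vary like the other group. The cause was not tested. Filtering on CPM left an identical gene set, and the 18S row left out changed no count. Library size alone moved the median of all genes from 0.024 to -0.27. Dlx6os1 was not fitted with DESeq2, the CPM filter or the block, having failed the filter. Counts of 3 to 9 limit what can be said of Dlx6os1, and counts of 16 to 59 that of Sox2ot in replicate 2 and of Pantr1.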
